A study of Mus musculus with 6 samples.

Results

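The cytosolic ribosomal protein genes were followed on arrays of LSK-SLAM cells, a mouse bone marrow population enriched for HSC and sorted as Lin-, c-Kit+, Sca-1+, CD150+ and CD48-. A probe, a short DNA sequence that binds 1 transcript or several alike, belonged to the group when its gene name in the array files was that of a cytosolic ribosomal protein, large (Rpl), small (Rps) or stalk (Rplp), or was Rpsa or Fau. S6 kinases and names ending in -ps, which mark pseudogenes, were left out. This gave 172 probes of 84 genes among 39429 probes on the array. Of a list of 79 ribosomal protein genes 77 had a probe, 31 of the small subunit, 43 of the large subunit and 3 of the stalk, and the others were not analysed here. The other 7 genes were the paralogs Rpl3l, Rpl7l1, Rpl10l, Rpl22l1, Rpl39l, Rps27l and Rps4y2. All 172 probes were matched by accession to the RefSeq gene table, in which Rps3a is called Rps3a1 and Rps4y2 is called Rps4l.

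Both groups of cells had been through 2 rounds of transplantation (2T). Donor fetal liver cells, either WT or lacking p190-B, a GTPase-activating protein, were given with competitor marrow to lethally irradiated congenic mice, and marrow of these was passed to secondary recipients. The 2T-WT and the 2T-p190-B-/- group had 3 arrays each. The donors were fetal because mice without p190-B die before birth, the deletion was present in every donor cell from the start, and the host marrow, the irradiation and the competitor cells were shared by both groups. Per the study's legend the cells came from separate secondary recipients, but whether 1 array holds 1 mouse or a pool was not settled by the labels. The ages of the recipient mice are not given in the sources used here, and p-values measure the spread between these arrays.

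A ribosome joins a small subunit, which reads the mRNA, to a large subunit, which forms the peptide bond, and each protein of either subunit is needed in about the same amount. The genes are therefore usually expressed together, and their mRNAs begin with a short pyrimidine tract through which mTOR signalling sets how strongly they are translated. HSC are known for a low rate of protein synthesis, and inherited loss of 1 copy of several of these genes causes Diamond-Blackfan anaemia, a failure of red cell production. These mRNAs are short and abundant, and most of the genes have many processed copies elsewhere in the genome, so that probes named for 1 gene can differ in what they bind.

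The probes are 60 bases long, and the results turn on how probes of the same gene differed. The next lines give both probes of Rps3a and the pair of Rpl27a probes nearest the 5′ end of the transcript. Sequences run 5′ to 3′ in the sense of the transcript, with positions of the file annotation in mm9. These probes are printed because within each gene the first shown exceeded background on every array, while the second did so on no 2T-WT array. The letters are in lower case because no part of them was singled out.
Rps3a, from base 523 of the transcript, chr3:85943041-85943100, minus strand: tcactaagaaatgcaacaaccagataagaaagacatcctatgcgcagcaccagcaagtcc
Rps3a, from base 718, chr3:85942027-85942458, minus strand, across an intron: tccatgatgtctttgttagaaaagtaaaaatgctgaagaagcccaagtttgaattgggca
Rpl27a, from base 283, chr7:116664097-116664156, plus strand: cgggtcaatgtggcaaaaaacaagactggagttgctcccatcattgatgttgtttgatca
Rpl27a, from base 165, chr7:116663505-116664038, plus strand, across an intron: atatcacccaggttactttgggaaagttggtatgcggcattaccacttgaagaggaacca

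Rpl7a had a pair of probes at the same place, chr2:26768759-26768818 on the plus strand, from base 791 of the transcript. They differed at 6 of 60 bases, as T24C, G26A, T37C, G38A, G41A and A52C, counted from 1 at the 5′ end with the brighter probe first. They are shown because the same position was read by unlike letters. Of each the first 30 bases are given, with the 2 differing bases of that stretch in capitals.
Rpl7a, brighter probe: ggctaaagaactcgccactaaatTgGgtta
Rpl7a, dimmer probe: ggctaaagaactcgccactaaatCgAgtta
For Rpl35, whose only probe had the smallest p of the whole group, bases 26 to 55 of the probe are shown (probe at chr2:38857101-38857160, minus strand, from base 392 of the transcript). The capitals mark AATAAA, the hexamer that directs polyadenylation.
Rpl35: gatgacaacgacAATAAAgtgcgagactga

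Of the 172 probes, 46 held AATAAA on the transcribed strand, against 12.6% of all probes on the array, and 36 lay across an intron, against 3.97% of all probes with a position. The other strand was not searched. A run of at least 20 bases was shared with a probe of another gene name by 79 of them, 12 of these with a probe of a -ps pseudogene, and 1 probe of Rpl17 shared such a run with 8 other probes. Positions were given for 171 probes. The probes of Rpl13, Rpl31, Rpl36 and Rps2 were placed on different chromosomes or over 1 Mb apart, with 1 Rpl13 probe on chromosome 4 and the others on 8, 1 Rpl31 probe on chromosome 12 and the others on 1, and 1 Rpl36 probe on chromosome X and the others on 17. The probe of Rps4x, an X-linked gene, was placed on chromosome 3. All 4 probes of Rps27 were placed on chromosome 9, and the RefSeq table lists Rps27 itself on another chromosome. The 3 probes of Rps29 were placed on chromosome 2, and whether this is the gene or a copy is not settled here.

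Values are log2 of the processed signal over the array's 75th percentile, so that 0 is a spot as bright as that percentile. Before scaling this percentile lay between 53.9 and 227 in 2T-WT and between 252 and 385 in 2T-p190-B-/-, so every 2T-p190-B-/- array was brighter. The single probe of Arhgap5, which encodes p190-B, was above background on 0 of 3 2T-WT and 1 of 3 2T-p190-B-/- arrays and gives no check of the labels. The list of HSC sort and identity genes also held Cd48, which the sort excludes. Of its probes 8 of 16 were above background on all 6 arrays (share over all probes 34.9%). The same held for 3 of 9 probes of red cell precursors, 2 of 11 of the neutrophil lineage, 5 of 8 of B lymphocytes, 5 of 8 of T lymphocytes, 5 of 8 of megakaryocytes and platelets and 3 of 6 of macrophages. The median level of each of these lists overlapped between the genotypes. That of T lymphocyte probes, for example, ran from 1.35 to 2.38 in 2T-WT and from 1.40 to 2.26 in 2T-p190-B-/-. The median log2 difference, 2T-p190-B-/- minus 2T-WT, ran from -1.43 for B lymphocytes to 0.55 for red cell precursors, beside -0.33 over all tested probes. Of 7 tested B lymphocyte probes 4 were at least 2-fold lower (57.1%, background 27.8%). All 4 tested red cell precursor probes were higher (background 39.3%). No probe of these lists had a limma adjusted p under 0.05. The part of other cells in the results below was not tested, and in bulk RNA fewer cells of a type and less RNA per cell cannot be told apart. The 2T-WT arrays correlated with each other at 0.70 to 0.73 over all tested probes, the 2T-p190-B-/- arrays at 0.76 to 0.80, and arrays of different genotype at 0.67 to 0.78.

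Ribosomal protein probes were above background more often than other probes. They were above background on all 6 arrays for 87 of 172 probes, while the share over all probes was 34.9%, and on none for 10 probes, where the share over all probes was 16.8%. They were above background on more 2T-p190-B-/- than 2T-WT arrays for 50 probes (29.1%) and on fewer for 9 probes, against 27.7% and 9.81% of all probes. Both comparisons between the genotypes thus give shares near or below those of all probes. By array, 64.5%, 80.2% and 60.5% of the probes were above background on 2T-WT replicates 1 to 3 and 89.5%, 79.1% and 77.3% on 2T-p190-B-/- replicates 1 to 3, beside 48.4%, 66.5%, 50.6%, 73.1%, 53.0% and 64.2% of all probes.

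The outermost cells of this count held 4 probes that were above background on 0 of 3 2T-WT and 3 of 3 2T-p190-B-/- arrays, and 0 with the reverse. These were the probes of Rpl35, of Rps3a from base 718, of Rps18 from base 367 and of Rpl27a from base 165. A further 9 probes, among them those of Rpl7l1, Rpl9, Rpl26, Rpl27 and Rpl39 and others of Rps18 and Rps27, were above background on 0 2T-WT and 2 2T-p190-B-/- arrays. The single probe of Rpl39l had the opposite, 2 2T-WT and 0 2T-p190-B-/- arrays. Shares of all probes in these cells are not given here. Of all probes, too, 27.7% were above background on more 2T-p190-B-/- than 2T-WT arrays and 9.81% on fewer. These counts therefore do not by themselves set ribosomal protein genes apart. Rpl23 and Rps16 each had 2 of 3 probes dark on every array, with the remaining probe above background on all 6. The 10 without a call also counted the Rpl31 probe from base 791, whose spot was marked as an outlier on every array and left out, so that 9 were dark.

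**Figure D1:**
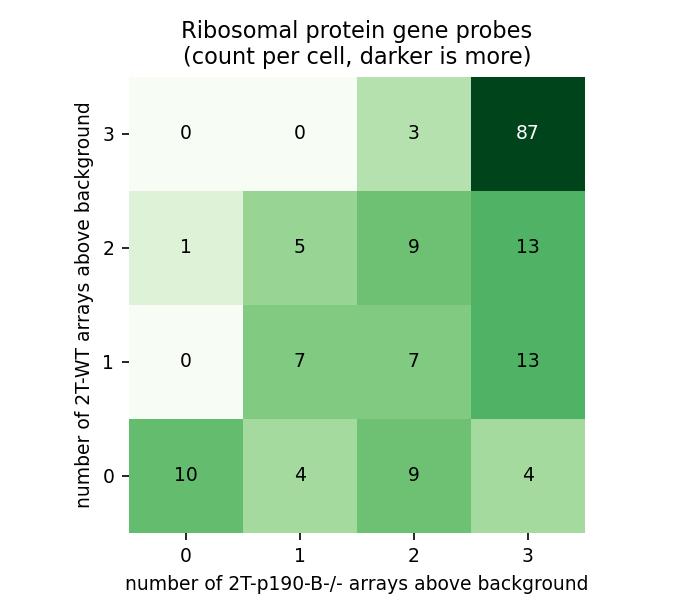
Number of ribosomal protein gene probes by how many of the 3 2T-WT arrays (vertical) and of the 3 2T-p190-B-/- arrays (horizontal) they were above background on. The corner with 3 and 3 holds 87 probes, the corner with 0 2T-WT and 3 2T-p190-B-/- arrays holds 4, and the opposite corner holds 0. Counts of all probes on the array by cell are not shown.

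Probes above background on at least 3 of 6 arrays were tested, which left 141 probes of 80 genes. The 31 probes not tested included the only probe of Rpl5, Rpl3l, Rpl39l and Rpl7l1. A probe passes this filter through 1 group alone when it is bright there, so counts over the 141 describe probes that passed and not all members. The median tested ribosomal protein probe stood at 0.41, 0.03 and -0.69 on 2T-WT replicates 1 to 3 and at 0.58, 1.17 and 0.30 on 2T-p190-B-/- replicates 1 to 3. The medians of the groups thus overlapped, with 2T-WT replicate 1 above 2T-p190-B-/- replicate 3. All tested probes together had medians between -0.84 and -0.64 on the same arrays.

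Values of these probes scattered widely between arrays of 1 genotype. The median SD over the 3 arrays was 1.65 in 2T-WT and 1.24 in 2T-p190-B-/-, against 1.05 and 0.82 over all tested probes. Of 140 probes with a value on every array, 61.4% ranged over at least 4 log2 units, against 28.7% of all probes. In 25 probes, 17.9% against 7.08% of all probes, 1 array stood at least 3 log2 units above the next. That array was 2T-WT replicate 1 in 15 of them, 2T-WT replicate 3 in 4 and any other array in at most 3. Of the 1761 such probes among all tested, 361 peaked on 2T-WT replicate 1 and 380 on 2T-WT replicate 3. Among the 15 were 3 probes of Rpl6, a large-subunit protein, at 6.75, 6.61 and 6.01 on that array, and the probe of Rps9, a small-subunit protein, at 6.25. The same 3 Rpl6 probes stood at most at 2.27 on any other array. The array of 2T-WT replicate 1 was the only one on its slide, and the part of the slide in these peaks was not tested.

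**Figure D2:**
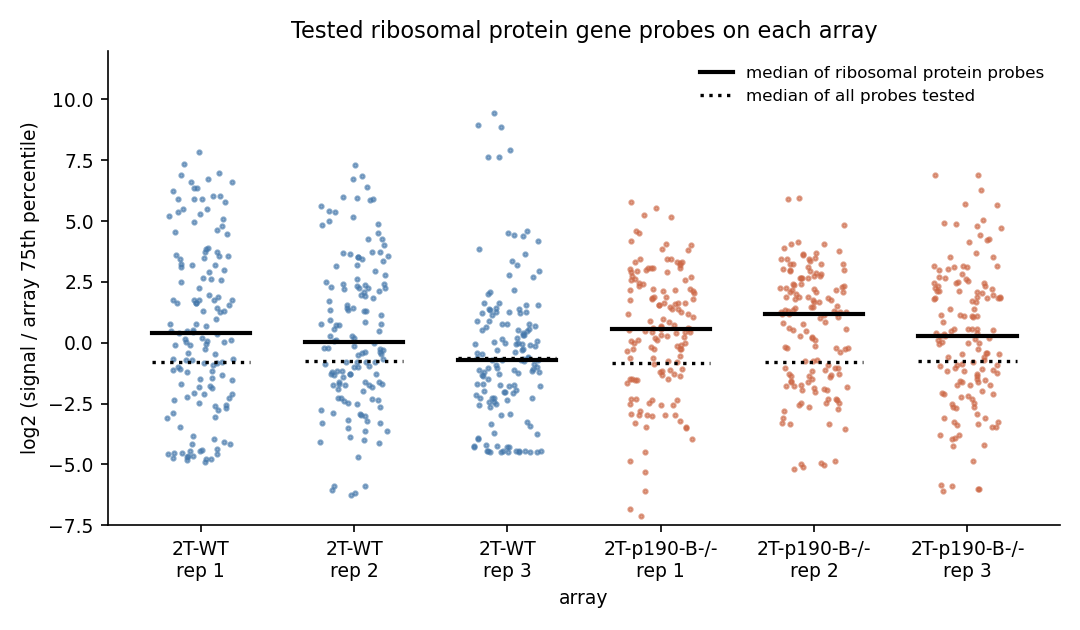
Log2 signal relative to the array's 75th percentile of the 141 tested ribosomal protein gene probes on each of the 6 arrays (points), with their median (solid bar) and the median of all tested probes (dotted bar). The ribosomal medians lie between -0.69 and 1.17, and on every array except 2T-WT replicate 3 they lie above that of all probes.

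Among the brightest probes were those of Rps3, Rps24, Rpl19 and Rpl7a. Brightness depends on the probe as well as on its transcript, so that this order is one of spots and not of mRNA levels. The Rps3 probe from base 1795 stood at 7.35, 6.71 and 7.63 on 2T-WT arrays and 5.80, 5.91 and 6.90 on 2T-p190-B-/- arrays, and the ranges overlapped. Rps3 binds mRNA at its entry into the small subunit. The probe of Rps24, a small-subunit protein altered in Diamond-Blackfan anaemia, had, from base 527, 6.61, 6.01 and 3.86 against 4.59, 4.13 and 4.70. Rpl19 had 5.20, 4.52 and 8.88 against 1.80, 2.67 and 5.68, and Rpl7a from base 130 had 6.88, -0.81 and 8.96 against 4.01, 3.77 and 3.69. All 4 had a lower mean in 2T-p190-B-/-, with log2 differences from -2.81 to -1.02, and none of these differences passed the test (limma, smallest adjusted p of the 4 0.638).

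No ribosomal protein probe differed between the genotypes at an adjusted p under 0.05 (limma, Benjamini-Hochberg over 25127 probes), and the share over all probes was 0%. The smallest adjusted p was 0.159. At an unadjusted limma p under 0.05 there were 21 probes, 14.9%, against 6.58% of all probes, and by the methods' t-test after adjustment there were 0. Of the 21, 18 were higher in 2T-p190-B-/- (background 3.19%) and 3 lower (background 3.39%). The 87 probes above background on all 6 arrays held 7 of the higher and 2 of the lower ones. The 54 above background on 3 to 5 arrays held 11 and 1. Of these 54, 37 were above background on more 2T-p190-B-/- than 2T-WT arrays, and such probes can pass the filter through that group. Shares of all probes for this split are not given here. The groups did not overlap in 18 probes that were higher and 7 that were lower, that is 12.8% and 4.96% against 4.53% and 11.7% of all probes. Among the 87 probes above background on all 6 arrays these counts were 8 and 6.

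The differences were spread to both sides. Of the 141 probes 72 were higher in 2T-p190-B-/- (51.1%, background 39.3%) and 69 lower. Their median log2 difference was 0.02, in a range from -4.08 (Rpl28) to 6.61 (Rps3a), while the median of all tested probes was -0.33. At least 2-fold higher were 41 probes (29.1%, background 15.9%) and at least 2-fold lower were 43 (30.5%, background 27.8%). Among the 87 probes above background on all 6 arrays these counts were 13 and 30, and among the other 54 they were 28 and 13. Past the t-test threshold, a p of 0.05 or less with at least 2-fold difference and no adjustment, 13 probes were higher (background 2.31%) and 2 lower (background 4.11%). With normexp background correction, and also with the replicate number as a block, 7 were higher and 7 lower. The first number was 7 without 2T-WT replicate 3 and 8 without 2T-WT replicate 2 or 2T-p190-B-/- replicate 1, and the second was 5 without 2T-WT replicate 2 or 3. Shares of all probes past the threshold under these alternatives are not given here.

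Rpl35, a protein at the exit of the peptide tunnel of the large subunit, had the smallest p. Its probe was never above background in 2T-WT, where it read -2.69, -4.71 and -4.49, and it read 1.62, 3.45 and 2.66 in 2T-p190-B-/-. The groups stood apart (limma adjusted p = 0.159). With 2T-WT values raised to a floor, the dimmest signal above background on each array, the level in 2T-p190-B-/- was 47.4-fold higher. A fold against this floor depends on how background is handled and is not a lower limit. The measured log2 difference was 6.54 ± 0.86 (SE, 3 arrays against 3). On the slide that carried arrays of both groups it was 7.13.

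Rps3a, a small-subunit protein near the mRNA exit, was read by 2 probes, both of which were higher in 2T-p190-B-/- without overlap. The probe from base 718 read -4.43, -5.87 and -4.49 against 0.25, 2.34 and 2.44, 25.4-fold higher against the floor (measured log2 difference 6.61 ± 0.87 SE, limma adjusted p = 0.159). The probe from base 523, above background on all 6 arrays, read -1.49, -1.26 and -0.07 against 1.20, 1.52 and 2.44. Its log2 difference was 2.66 ± 0.75 (SE, limma adjusted p = 0.638). The probe from base 718 passed the filter through 2T-p190-B-/- alone, so its direction adds no support to that of the probe from base 523.

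Another 3 probes completed the 5 higher ones with the smallest p. Rpl17, which lies near the tunnel exit, read -3.07, -2.94 and -2.42 against 1.89, 2.85 and 0.14 with its probe from base 225, a log2 difference of 4.44 ± 0.85 (SE, limma adjusted p = 0.378). Rps18, at the head of the small subunit, read -4.58, -6.26 and -4.47 against -0.24, -0.38 and -2.31, 4.03-fold higher against the floor (limma adjusted p = 0.463). Rpl27a, a large-subunit protein, read -4.54, -6.19 and -4.25 against 3.20, -2.33 and 3.00 with its probe from base 165, 19.4-fold higher against the floor (limma adjusted p = 0.544). In Rpl27a the second 2T-p190-B-/- array lay far below the other 2, though above each 2T-WT array. The probes of Rpl35, Rps18, Rpl27a and Rps3a from base 718 passed the filter through 2T-p190-B-/- alone, and their measured differences rest on 2T-WT signals not above background. With normexp background correction, which adds an offset to each signal before the log is taken, the log2 differences of these 5 probes shrank to between 0.53 (Rps18) and 3.49 (Rpl35) and kept their direction.

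The 5 lower probes with the smallest p were of Rplp0, Rpl7, Rpl7a, Rps15a and Rps26. Rplp0, the base of the stalk that recruits elongation factors, read -1.68, -1.29 and -2.93 against -2.92, -4.92 and -4.87 with its probe from base 1025, with the lowest 2T-WT and the highest 2T-p190-B-/- value next to each other (log2 difference -2.27 ± 0.86 SE, limma adjusted p = 0.638). Rpl7, a large-subunit protein, read 0.49, -0.23 and 0.78 against -1.50, -1.37 and -1.17 with its probe from base 752, and here the groups did not overlap. The brighter of the Rpl7a pair printed above read 3.60, 2.28 and 1.55 against 0.60, 1.17 and -0.47, again without overlap. Rps15a from base 4642 had -3.04 ± 1.38 (SE) and Rps26 had -2.38 ± 1.18 (SE), both with overlapping groups. Within the slide that holds both groups the difference of the Rpl7a probe was -1.03 and that of the Rps15a probe -0.97.

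**Figure D3:**
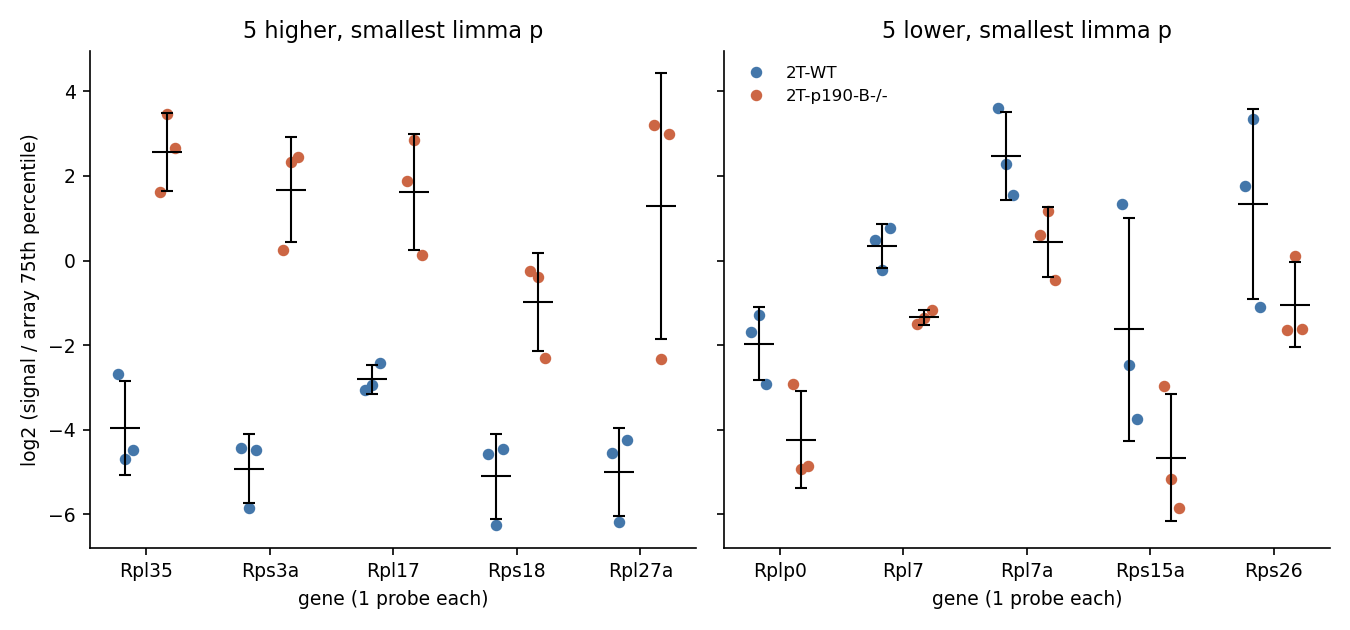
Log2 signal relative to the array's 75th percentile on the 3 2T-WT and the 3 2T-p190-B-/- arrays (points), with mean and SD (bars), for the 5 higher and the 5 lower ribosomal protein probes with the smallest limma p. The 5 higher probes do not overlap between the groups, and of the 5 lower ones those of Rpl7 and Rpl7a do not.

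The subunits were then set side by side. Of 51 tested small-subunit probes 11 were higher and 0 lower at an unadjusted limma p under 0.05 (background 3.19% and 3.39%). At least 2-fold higher were 20 and at least 2-fold lower 14 (background 15.9% and 27.8%), with a median log2 difference of 0.08. Of 82 large-subunit probes 7 were higher and 2 lower at that p, 20 were at least 2-fold higher and 26 at least 2-fold lower, with a median of 0.06. These are counts beside each other, and the difference between the subunits was not tested. Of the 4 tested stalk probes 3 were lower, with a median of -1.18, and the exception was Rplp1 at 0.67 ± 1.09 (SE).

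Other small-subunit proteins with higher values in 2T-p190-B-/- included Fau, whose product is cleaved to the ribosomal protein eS30 and a ubiquitin-like peptide. Its probe read 1.77, 0.87 and -0.02 against 2.89, 2.38 and 3.53, all 3 2T-p190-B-/- arrays above all 2T-WT arrays (log2 difference 2.06 ± 0.76 SE, limma adjusted p = 0.638). The 3 tested probes of Rpsa, the laminin receptor that sits at the mRNA exit, gave -0.46, -0.29 and -0.27, with SE from 1.35 to 1.62. The Rpsa probe from base 990 read 4.98, 4.84 and 0.20 against 5.17, 3.70 and 0.34, so that 1 array of each group lay far below its partners. The probe of Rps14, a small-subunit protein lost in the 5q- syndrome, read -2.12, 3.74 and 1.24 against -1.36, -1.04 and -3.11, with overlap.

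Of the 19 Diamond-Blackfan anaemia genes on the array 18 were tested with 29 probes, of which 13 were higher and 16 lower. Their median was -0.63 on the log2 scale. At an unadjusted limma p under 0.05, 4 were higher and 0 lower, where the shares over all probes were 3.19% and 3.39%. Rps19, the gene most often altered in that disease, had 1 probe, at 2.66, -1.98 and -2.28 against -2.33, -3.07 and -4.20. The groups did not overlap, but the gap between them was narrow, and 1 2T-WT array stood far above the rest (log2 difference -2.67 ± 1.34 SE, limma adjusted p = 0.638). Rpl5 and Rpl11 form with 5S rRNA the particle that restrains Mdm2 and so stabilises p53. Rpl5 was above background on 1 of 6 arrays and was not tested. The 3 probes of Rpl11 gave -1.23, -3.26 and -2.52 with SE of 2.08, 2.93 and 2.61, and its probe from base 495 read 5.37, 3.70 and -1.74 against 0.10, -1.27 and 4.81. Each group of Rpl11 values held 1 array at the far end from the others.

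Of the 8 probes of the paralogs 4 were tested, with log2 differences of 1.13 ± 0.71 (SE) for Rpl10l, 0.76 ± 0.90 for Rps27l, 0.02 ± 0.89 for Rpl22l1 and -1.57 ± 0.88 for Rps4y2. Rpl10l, a retrogene of Rpl10 known from testis, read -1.83, -1.69 and -1.79 against -1.18, -1.03 and 0.29, without overlap, while the 3 probes of Rpl10 itself gave 0.39, -2.34 and -0.05. Rps4y2 read 0.67, 0.28 and 2.94 against -0.77, -0.25 and 0.21, lower in 2T-p190-B-/- without overlap, and Rps4x, its parent gene, gave 2.56 ± 1.41 (SE) with overlapping groups. Rps27l, which is induced by p53, overlapped between the groups, and the 1 tested probe of Rps27 gave 2.54 ± 1.02 from 5 arrays, since its spot on 2T-WT replicate 2 was an outlier. Given where its probes were placed, this value may not be that of Rps27 itself. Rpl22 gave 1.70 ± 1.82 with 1 tested probe. Rpl3 gave 2.21 ± 1.57, and Rpl39, the parent of Rpl39l, gave 0.39 ± 1.03. For Rpl3l, a muscle form of Rpl3, and for Rpl7l1 there was no tested probe.

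The brighter and the dimmer probes leaned to opposite sides, but this lean was not stable. Split at their median signal, the brighter 71 probes had a median log2 difference of -0.27 and the dimmer 70 of 0.42. At the same split the brighter and dimmer of all tested probes had medians of -0.44 and -0.27. In 4 bins of signal from the dimmest up, the ribosomal medians were 0.32, 0.54, 0.02 and -0.53. All tested probes of the same signal had medians of -0.34, -0.14, -0.17 and -0.69, below the ribosomal median in each bin. At an unadjusted limma p under 0.05 the bins held 5 of 36, 9 of 35, 6 of 35 and 1 of 35 ribosomal probes. The share over all probes, of any signal, was 6.58%. Probes above background on all 6 arrays had a median of -0.31 over 87 probes, and those above background on 3 to 5 arrays one of 1.18 over 54 probes, of which 37 were above background on more 2T-p190-B-/- than 2T-WT arrays. With normexp background correction the order turned, to 0.22 for the brighter and -0.49 for the dimmer probes. With the slide as a block they were 0.31 and 0.35, and without 2T-WT replicate 1 the brighter probes had 0.13.

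**Figure D4:**
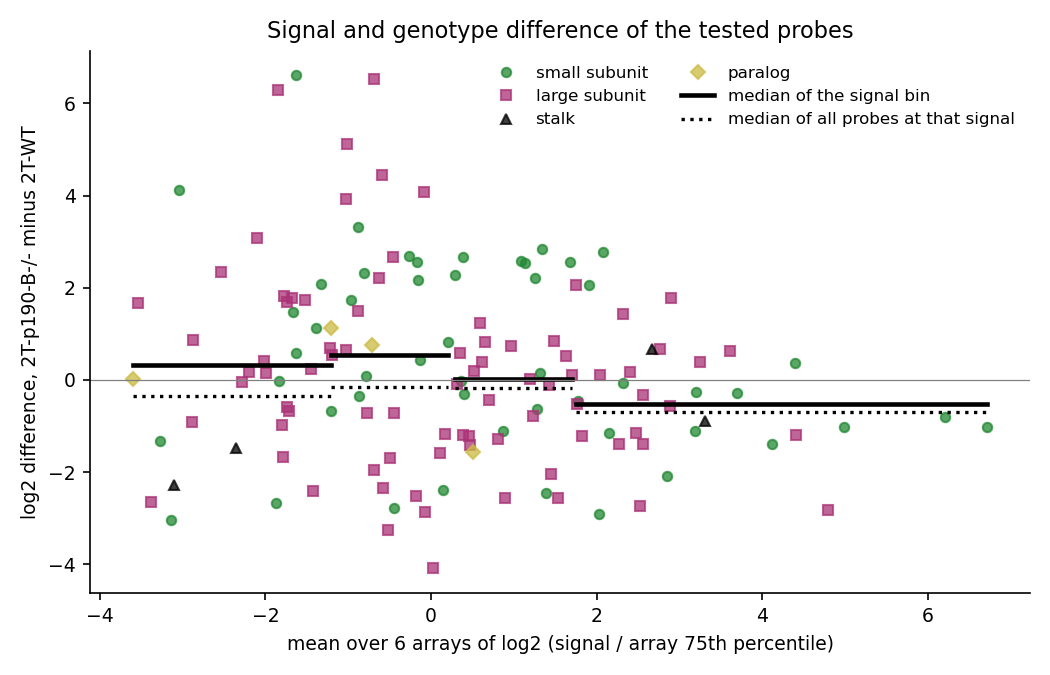
Log2 difference, 2T-p190-B-/- minus 2T-WT, against the mean log2 signal over 6 arrays for each tested ribosomal protein probe (points, by subunit). Solid bars give the median of each of 4 bins of signal (0.32, 0.54, 0.02 and -0.53), dotted bars the median of all tested probes in the same signal range.

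Probes of the same gene were also compared. In 38 genes 2 or more probes were tested. All probes were higher in 11 genes, all lower in 12, and on both sides of 0 in 15, a state found in 45.1% of all genes with 2 or more tested probes. The brightest and the next brightest probe of a gene pointed in opposite directions in 26.3% of these genes, against 42.3% of all 3044 genes with such a pair. The median gap between both was 0.77, against 0.99, and it was at least 2 log2 units in 8 of the 38 genes, against 20.7% of all. The within-array difference between both probes changed with genotype in 0 of the 38 genes at a limma adjusted p under 0.05 (smallest 0.612, 0% of all genes), and in 5 genes, 13.2%, at an unadjusted p under 0.05, against 6.64% of all genes. Among those 5 were Rps3a, Rpl27a and Rps13, of which the dimmer Rps3a and Rpl27a probes passed the filter through 2T-p190-B-/- alone. The next brightest probe had the higher difference in 22 of the 38 genes, against 1667 of all 3044.

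Rpl17, Rpl30, Rpl27a, Rps13 and Rps15a had the widest gaps between probes. The 6 tested probes of Rpl17 gave, from the 5′ end on, 4.44, 3.08, 2.67, 1.5, -2.73 and -2.57. The last 2, which lie near the 3′ end and hold AATAAA, were the brightest, with 4.48, 5.97 and 1.23 against 2.71, 2.25 and -1.49 for the probe from base 586. All 6 Rpl17 probes share a run of at least 20 bases with a probe of another gene name. Its 7th probe, from base 715, was dark on all arrays. Rpl30, a large-subunit protein whose yeast counterpart binds its own pre-mRNA, had 5.12 ± 1.26 and 3.92 ± 1.36 (SE) from bases 338 and 220, without overlap between the groups, and -0.59 ± 0.92 from base 90. On 2T-p190-B-/- replicate 3 the higher pair of Rpl30 probes stood at -1.52 and -2.12, and the highest 2T-WT values were -3.22 and -2.15.

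Rps13, a small-subunit protein, had 2.28 ± 0.94 (SE) from base 463 and -2.90 ± 2.26 from base 517, the latter with 0.19, 0.79 and 9.46 against -0.18, -0.20 and 2.12. The value of 9.46 on 2T-WT replicate 3 was the highest of any ribosomal protein probe and lay far from its partners. Rps15a had 0.82 ± 1.37 and 1.73 ± 1.26 from bases 250 and 320 and -3.04 ± 1.38 from base 4642. On 2T-p190-B-/- replicate 2 the first pair stood at 4.06 and 2.93, and on the other arrays both lay below 0. The third Rpl27a probe, from base 984, gave 1.68 ± 0.68 without overlap, and that from base 283 gave 0.74 ± 1.98, with 5.09, -1.28 and -2.03 against 3.02, -1.50 and 2.50.

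After Rpl17 with 7 probes, the genes Rpl6, Rpl7, Rpl7a, Rpl31, Rps27 and Rpsa had 4 each, of which the first 4 are given here. The 4 probes of Rpl6 gave -0.11, 1.23, -1.28 and 0.62, with SE of up to 2.47. The 4 probes of Rpl7 gave -1.70, -0.71, 1.78 and 1.73 from the 5′ end on, and the last 2, which overlap by 47 bases, were within 0.05 of each other. The 4 probes of Rpl7a gave -1.19, 0.18, -2.04 and -1.58, of which the last 2 are the pair at one position. The dimmer of that pair read 0.48, 1.44 and 0.78 against -0.26, 0.47 and -2.23. Of the 4 probes of Rpl31 2 were tested, at -1.66 ± 0.96 and -2.41 ± 3.21, and the second of them read 7.83 on 2T-WT replicate 1 and at most -0.33 on every other array.

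**Figure D5:**
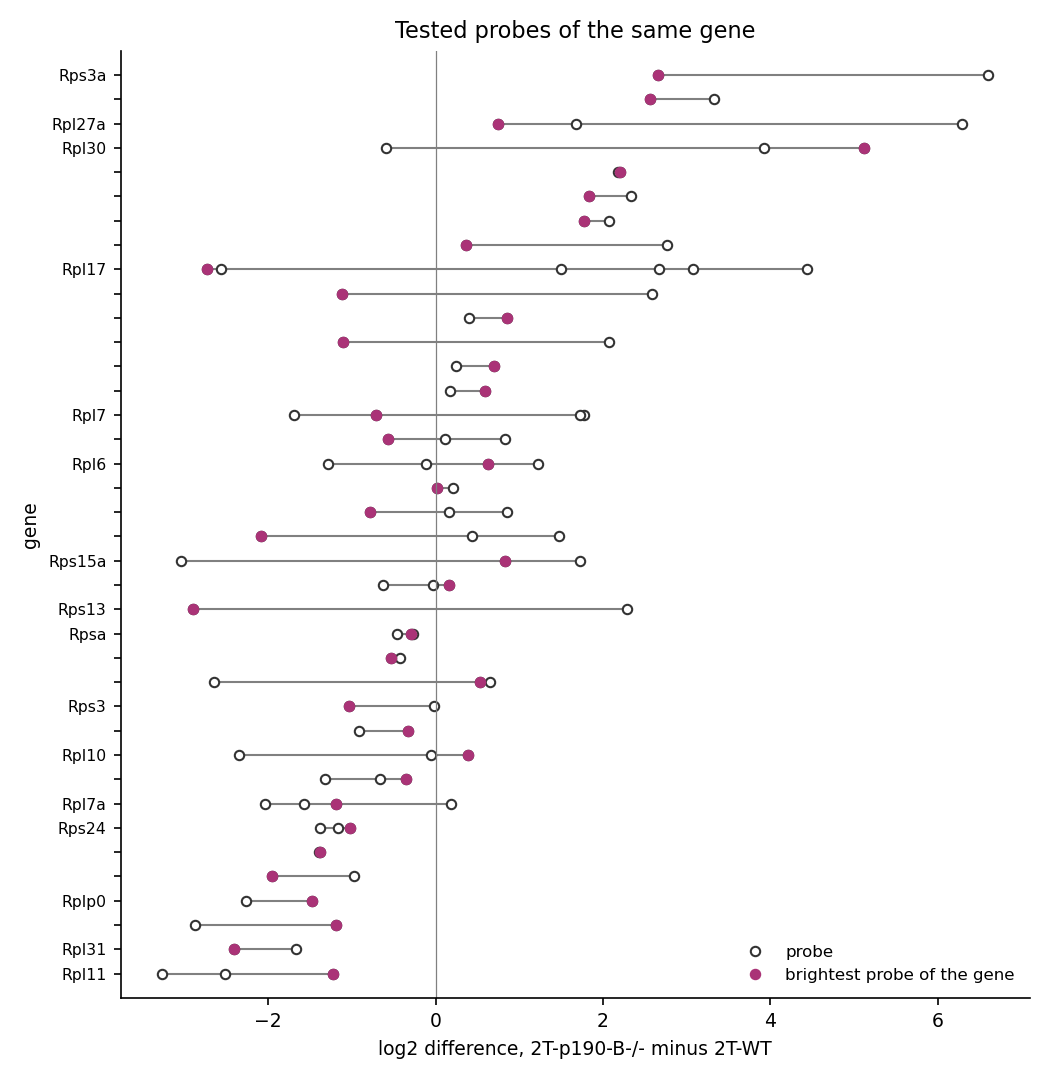
Log2 difference, 2T-p190-B-/- minus 2T-WT, of every tested probe in the 38 ribosomal protein genes with at least 2 tested probes, 1 row per gene, with the brightest probe filled and names given for some of the genes. In 15 genes the probes lie on both sides of 0, with the widest span in Rpl17, from -2.73 to 4.44.

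Probes of 1 gene that overlap were set beside those that do not, with no test. Between the 12 pairs of tested probes of 1 gene that share a run of at least 20 bases the median absolute gap was 0.72, and between the other 81 pairs 1.20. Over all genes the same medians were 0.52 over 243 pairs and 1.08 over 3694 pairs. The Rpl38 pair, overlapping by 53 bases, gave -1.38 and -1.39. The Rpl10 pair, overlapping by 52 bases, gave -2.34 and -0.05, with 2.58 and -4.77 on 2T-WT replicate 1.

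Probes were also set side by side by features of their sequence, and the differences between these medians were not tested. The 36 tested probes with AATAAA had a median of -0.55 and those without it 0.20. The 34 tested probes across an intron had a median of 0.14 and the others 0.02. The probes that share a run of at least 20 bases with a probe of another gene name had a median of 0.12 over 69 probes and the others -0.04 over 72 probes. The motif CTTTC, a stand-in for the pyrimidine tract, was found on the transcribed strand within 40 bases centred on the start in 20 of the 63 genes with a promoter in the RefSeq table (31.7%), against 6.44% of all genes. Its reverse complement GAAAG was found in 6.35%, against 5.67% of all genes. Among the genes of the 5 higher probes the motif was present in Rpl27a and Rpl35. It was not among the letters of the window in Rps18 and Rps3a. The Rps18 window still holds an unbroken run of C and T across the start. Lacking this motif therefore does not mean lacking a pyrimidine tract. The start regions of Rpl27a and Rpl35 (10 bases before to 20 after the start, GRCm38.p6) are shown with 1 copy in capitals. In Rpl35 that copy lies before the start, and a further copy after the start is in lower case. The start of Rpl17 was not analysed here.
Rpl27a, chr7:109519185-109519214, plus strand: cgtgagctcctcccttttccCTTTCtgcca
Rpl35, chr2:39005112-39005141, minus strand: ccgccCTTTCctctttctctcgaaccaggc

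Related gene groups were read in the same way. Over all probes 3.19% were higher and 3.39% lower at an unadjusted limma p under 0.05. The 50 tested probes of -ps pseudogenes of ribosomal proteins had a median log2 difference of 0.03, with 6 higher and 1 lower at that p. This was 14% of the pseudogene probes, beside 14.9% of the ribosomal protein probes. Rps18-ps1 at 4.79 (limma adjusted p = 0.285) had the smallest p. The 61 probes of mitochondrial ribosomal proteins had a median of -0.23, with 1 higher and 2 lower, and Mrps18b at -2.84 had the smallest p. Ribosome biogenesis factors had a median of -0.09 over 36 probes with 0 at that p, led by Fbl, the rRNA methyltransferase fibrillarin, at -1.52. RNA polymerase I genes had a median of -0.26 over 12 probes, with 1 higher and 0 lower, led by Taf1d at 2.41, and regulators of ribosome production, the Myc and mTOR genes, 0.19 over 12 probes, with 0 higher and 2 lower, led by Mxd1, a Myc antagonist, at -1.80. Elongation factors and other mRNAs with a pyrimidine tract had a median of 0.08 over 22 probes, with 3 higher and 2 lower, and Hnrnpa1 at 7.23 (limma adjusted p = 0.478) had the smallest p. No probe of these lists had a limma adjusted p under 0.05.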

How the data were processed

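RNA of sorted LSK-SLAM cells was amplified and hybridised by a service laboratory to Agilent whole mouse arrays, 1 sample per array in 1 colour. The scanner output, made with Feature Extraction 10.5.1.1, was deposited for every array. Its processed signal is a linear intensity from which the background has been removed, and a table the authors deposited holds that signal divided by 1 number per array. Probe names and mm9 positions are those in the files. Amplification, not described further in the sources used here, and the reading of 1 stretch of a transcript per probe can change levels.

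Controls and spots marked as outliers (296 to 509 an array) were dropped, and 0 spots were saturated. The log2 of each signal over the 75th percentile of its array was averaged over spots of 1 probe. The 25127 probes well above background on 3 or more of the 6 arrays, with 2 values in each group, were fitted with limma 3.58.1 in R 4.3.3 (lmFit, eBayes, Benjamini-Hochberg). The methods' t-test, unpaired and two-sided, was run on the same values, with the threshold on p and fold taken from the notes to the study's gene lists. The pair test was limma on the within-array difference of a gene's brightest and next brightest tested probe. The steps were tested on simulated data. The number of arrays limits the precision, and an exact permutation test of 3 against 3 cannot go below 0.1. A fold against the floor compares the bright group's mean with the higher of the dim signal and the lowest signal above background on each array. It is not a lower limit on the true fold. Sequences and motifs come from the array files and RefSeq. Medians of lists are descriptions with no test.

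Named probes were those with the 5 smallest limma p in each direction, the 5 brightest, those of the 5 genes with most probes (ties by symbol) and of the 5 with the widest gaps, the paralogs with their parents, and Rpl5, Rpl11, Rps14, Rps19, Rplp0, Rpsa, Fau and Rpl35; others, such as Rps9, Rplp1, Rpl28, Rpl38, Rpl23 and Rps16, and those named only for where they were above background or mapped, were added after their values were seen. Values of some genes that these rules name are not reported here. The members, lists and tests were chosen with earlier results of these data known. Alternatives covered scaling, background correction, the filter, the slide, the replicate number, the variance model, each array left out, the brightness split and 1 value per gene.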

Additional observations from a re-analysis of the deposited data

How the results depend on the processing

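No ribosomal protein probe and no within-gene pair had a limma adjusted p under 0.05 under any of the alternatives run, and of 122 values recomputed 19 moved, that is a median by more than its spread between replicates or a count by more than 1.5 times. The median of the brighter probes moved by less than that spread but changed sign from -0.27 to 0.12 with quantile normalization, 0.22 with normexp, 0.31 with the slide block and 0.13 without 2T-WT replicate 1. The median of all tested probes was -0.33, and was -0.11 with quantile normalization, -0.08 with the 75th percentile over probes above background on all arrays, -0.47 with normexp and -0.47 within slide 2. The median of the ribosomal protein probes lay above it under each of these settings, at 0.23, 0.27, -0.03 and 0.29.

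Past the t-test threshold 13 probes were higher and 2 lower (background 2.31% and 4.11%). These counts were 7 and 7 both with normexp and with the replicate block, 15 and 1 with the 75th percentile over probes above background on all arrays, 10 and 1 with the slide block and within slide 2, and 11 and 1 with the values the authors processed. Restricting the test to probes above background on 6 of 6 arrays gave 5 and 2. Leaving out 1 array gave 7 to 12 higher (8 without 2T-WT replicate 2 or 2T-p190-B-/- replicate 1, 7 without 2T-WT replicate 3) and 2 to 5 lower (5 without 2T-WT replicate 2 or 3). With limma's unadjusted p in place of the t-test's they were 18 and 3. Shares of all probes past the t-test threshold under the alternatives are not given here, so the counts cannot be read against a background. The number of all probes with an unadjusted limma p under 0.05 was 1654 in the main fit and 3610 with normexp.

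The median of the dimmer probes, 0.42, was 0.67 with the 75th percentile over probes above background on all arrays, -0.49 with normexp, 0.85 within slide 2, -0.027 when the test was restricted to probes above background on 6 of 6 arrays, and 1.18 when probes above background on 3 to 5 arrays were taken as the dimmer ones. Leaving out 1 array gave -0.11 to 0.27 for all ribosomal protein probes, -0.57 to 0.13 for the brighter and 0.23 to 0.57 for the dimmer. Without the probes that share a run of 20 bases with another gene name, an alternative chosen after seeing the data, the median was -0.04. The cause of these shifts was not tested. Deviations of samples with the same replicate number correlated at 0.01, 0.02 and 0.09. With 3 arrays a group this cannot exclude a pairing. For replicate 3 the same number was the best match in both directions, and for replicates 1 and 2 it was not. The study's legend speaks of cells isolated 3 independent times, which the labels do not tie to the numbers. The replicate block left the 3 medians at 0.02, -0.27 and 0.42. Slides 1 and 3 held 1 array each, so the slide block rests on slide 2. Signals near background limit the 54 tested probes that were not above background on all arrays.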
